A study of Mus musculus with 14 samples.

Results

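Mouse embryonic fibroblasts deprived of all amino acids were compared with untreated fibroblasts, using 1385 transcripts with a gene symbol of the 1399 listed in each count table. 2 libraries of full amino acid starvation stood against 2 of the untreated group NT, so 4 of the 14 libraries of the series were compared. Cells of both groups are labelled wild type, and the sources used here give neither the length of the starvation nor the medium. The remaining groups were cysteine starvation, a further untreated group called NT2, cysteamine, a knockdown of the cystine exporter CTNS, and that knockdown with a CTNS plasmid (the rescue), with 2 libraries each. The labels do not say which untreated group belongs to the starvations. NT was used because its column headers share a prefix with those of the starvations, which NT2 lacks. Nothing states that replicate libraries are separate cultures, so a p-value measures only the spread between libraries, which may be technical. Messenger RNA of 50 to 100 nucleotides was excised from a gel, so the libraries hold short fragments of transcripts.

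Cells sense a shortage of amino acids in several ways. Uncharged transfer RNA activates the kinase GCN2, which phosphorylates the initiation factor eIF2 and favours translation of the transcription factor ATF4, whose targets include genes for amino acid import, synthesis and transfer RNA charging. Loss of amino acids at the lysosome also switches off the kinase complex mTORC1, which otherwise promotes translation of ribosomal protein mRNAs, ribosome assembly and growth. ATF4 binds composite C/EBP-ATF elements, and the letters TGATGNAA are a common form of them.

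Upstream sequence is shown for 3 amino acid genes with the smallest p against NT: the alanyl-tRNA synthetase gene Aars, the neutral amino acid importer gene Slc38a2 and the proline synthesis gene Aldh18a1. Each run is the 200 bases before the transcription start in the RefSeq promoter table on GRCm38.p6, 5′ to 3′, with matches to TGATGNAA on either strand in capitals.
Aars, chr8:111033642-111033841, plus strand: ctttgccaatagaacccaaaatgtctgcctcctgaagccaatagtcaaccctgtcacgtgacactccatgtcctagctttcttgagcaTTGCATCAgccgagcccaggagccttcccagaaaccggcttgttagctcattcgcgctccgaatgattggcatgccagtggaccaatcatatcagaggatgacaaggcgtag
Slc38a2, chr15:96699729-96699928, minus strand: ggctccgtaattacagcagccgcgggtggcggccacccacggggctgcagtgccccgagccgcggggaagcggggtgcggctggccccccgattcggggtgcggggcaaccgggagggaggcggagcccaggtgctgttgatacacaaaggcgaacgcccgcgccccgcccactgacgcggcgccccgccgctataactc
Aldh18a1, chr19:40588464-40588663, minus strand: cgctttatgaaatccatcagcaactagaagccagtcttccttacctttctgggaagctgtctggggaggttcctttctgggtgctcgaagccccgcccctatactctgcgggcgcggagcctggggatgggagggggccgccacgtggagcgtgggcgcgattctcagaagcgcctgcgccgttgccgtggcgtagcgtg
Of the 17 transporter, enzyme and synthetase genes measured, 11 were in the promoter table, and 2 of them, Aars and Yars, held a match within 250 bases before to 50 after the start. Over all 32851 windows of that length, 3.97% held one. The capitals in Aars lie on the minus strand from base -112 relative to the start, and neither Slc38a2 nor Aldh18a1 held the letters in its window.

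Levels below are library-scaled counts in the usual CPM unit, with library totals adjusted by edgeR's TMM factors, and 1 count stands for 35.8 and 98.0 CPM in the NT libraries and for 68.1 and 44.0 CPM in the starved ones. An equal count therefore gives a higher level in NT 2 than in either starved library, and a lower one in NT 1. The tables hold 33990 and 25697 counts in NT and 30784 and 44946 in starvation, and the median transcript had between 3 and 7 counts. The smallest count in any table is 1, so a transcript lost from a library cannot appear. The NT libraries stood apart from each other: across transcripts, which are not independent, their Spearman correlation was 0.556, while NT 1 correlated at 0.776 and 0.797 with the cysteine starvation libraries. A class of 271 transcripts, defined only by a level in the rescue more than 2 times that in NT2, took 61.2% and 84.2% of the NT counts and 80.3% and 76.3% of the starved ones. In cysteine starvation it took 36.1% and 55.6%. It is called the rescue-high class here, and its part in the results below was not tested beyond the values given without it.

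**Figure D1:**
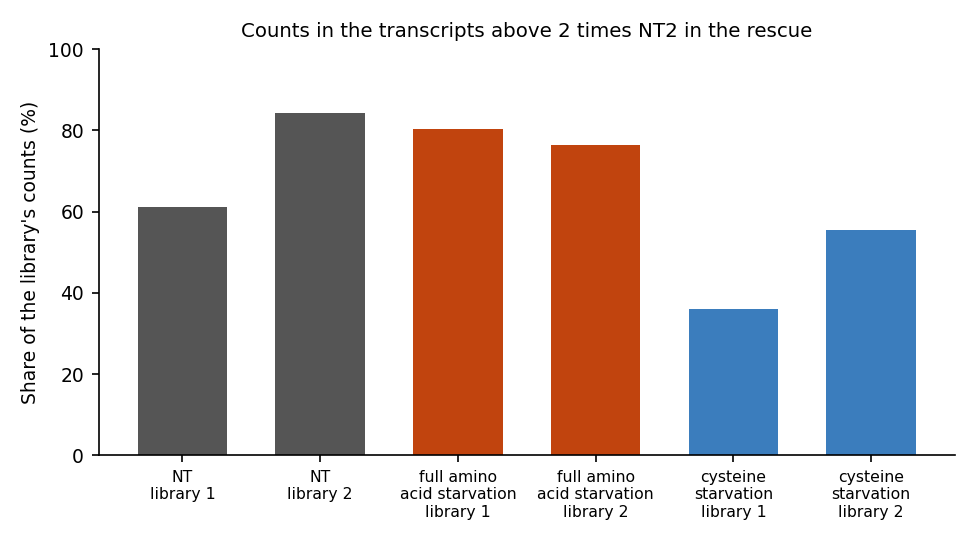
Share of each library's counts (%, vertical axis) in the 271 rescue-high transcripts, 1 bar per library of NT, full amino acid starvation and cysteine starvation. NT 2 and both full amino acid starvation libraries lie between 76.3% and 84.2%, and NT 1 at 61.2%.

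No transcript passed the test of full amino acid starvation against NT. By edgeR's quasi-likelihood test on all 14 libraries with Benjamini-Hochberg adjustment, 0 of 1399 transcripts passed 0.05 (0%), and the smallest adjusted p was 0.319. The same test on the 6 libraries of NT and the starvations also passed 0, with a smallest adjusted p of 0.971. SE values below share the spread of all 14 libraries. With 6 libraries the SE was 0.69 in place of 0.36 for Rrbp1 and 0.71 in place of 0.43 for Aars. Some were smaller, such as 0.67 in place of 0.81 for Cdh1. At an unadjusted p under 0.05 the fit on 14 libraries gave 76 higher (5.43%) and 33 lower (2.36%), 7.79% in all. The rescue-high class, 271 of the 1399 transcripts, held 41 of these higher and 0 of the lower ones. The other 1128 gave 35 higher and 33 lower. DESeq2 also called 0, and limma on log2(CPM + 1) called 8 higher and 5 lower. Leaving out NT 2 gave 18 higher and 2 lower, and leaving out starved library 2 gave 16 higher and 0 lower, while leaving out NT 1 or starved library 1 gave 0. Without the rescue-high class 1 transcript, Atp13a3, was called higher. The values that follow therefore describe 4 libraries. As the background for every count, both starved libraries lay above both NT libraries for 16.3% of all transcripts and below both for 14.6%, 57.5% had a log2 fold change above 0, and the median was 0.049. Scaling by library totals moved that median to -0.31. Above 0 lay 231 of the 271 transcripts of the rescue-high class and 574 of the other 1128.

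Genes that import, make and charge amino acids lay mostly higher in the starved libraries, and the synthetases had the highest median in the plot of list medians. Of 4 amino acid transporters measured, 3 were above 0 and the median log2 fold change was 1.29. Slc38a2, a sodium-coupled importer of neutral amino acids, measured 287 and 98.0 CPM in NT and 885 and 703 CPM in the starved libraries. Both starved libraries lay above both NT libraries, at a log2 fold change of 1.73 ± 0.51, adjusted p = 0.36. The NT value of library 2 is a single count. Slc3a2, the heavy chain of several amino acid exchangers, had 1 and 2 counts in NT and 1 and 8 in the starved libraries, a ratio of scaled counts of 3.06 (95% interval 0.762 to 17.5). That interval, like the others on ratios here, is exact and covers counting error only. Slc1a5, an exchanger of glutamine and other neutral amino acids, had 2 counts in NT and 4 in starvation, a ratio of 2.04 (95% interval 0.292 to 22.5). For Slc38a1, a related glutamine importer, the libraries overlapped (-0.45 ± 0.62). Without NT 1 the transporter median was 0.20, and without NT 2 it was 1.49.

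Among 5 enzymes of amino acid and one-carbon synthesis, 4 were above 0 with a median of 0.62, which was -0.21 without starved library 2. Aldh18a1, which opens proline synthesis from glutamate, measured 107 and 588 CPM in NT and 681 and 879 CPM in the starved libraries. The starved libraries lay above the NT ones, although NT 2 stood close to them (1.72 ± 0.54, adjusted p = 0.361). Without NT 1 the log2 fold change of Aldh18a1 was 0.44, and without NT 2 it was 2.88. Phgdh, the entry enzyme of serine synthesis, measured 394 and 98.0 CPM in NT and 408 and 528 CPM in the starved libraries, where NT 1 nearly reached the starved libraries (0.62 ± 0.53). The mitochondrial folate enzyme genes Mthfd2, at a ratio of counts of 2.72 (95% interval 0.652 to 15.9), and Shmt2, at 0.53 ± 0.69, were highest in starved library 2, while starved library 1 lay below both NT libraries.

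Of 8 aminoacyl-tRNA synthetases, which load amino acids onto transfer RNA, 6 were above 0 and the median was 1.12. In 4 of the 8 both starved libraries lay above both NT libraries, and in 1 below. Leaving out each library in turn kept that median between 0.86 and 1.13, and library totals gave 0.79. Aars, the alanyl-tRNA synthetase gene, measured 251 and 489.8 CPM in NT and 681 and 1099 CPM in the starved libraries. All 4 values were ordered by group, with a log2 fold change of 1.53 ± 0.43, adjusted p = 0.346. Lars, for leucine, measured 107 and 98.0 CPM in NT and 340.3 and 308 CPM in the starved libraries, and the groups did not overlap (1.60 ± 0.75, adjusted p = 0.607). Nars, for asparagine, measured 358 and 98.0 CPM in NT and 544 and 747 CPM in the starved libraries, with 1 count behind the NT 2 value (1.22 ± 0.54, adjusted p = 0.576). Sars, for serine, also showed no overlap, at 1.23 ± 0.59. Eprs, the glutamyl-prolyl-tRNA synthetase gene with the most counts of the list, measured 1039 and 2253 CPM in NT and 4083 and 2066 CPM in the starved libraries. Its lowest starved library lay below NT 2, so the groups overlapped (1.03 ± 0.37, adjusted p = 0.442). Values for valine (Vars, 0.26 ± 0.50), lysine (Kars, -0.23 ± 0.82) and tyrosine (Yars, -0.20 ± 0.59) were within 1 SE of 0. Over the 3 lists together, 13 of 17 were above 0 and the summed level was 4692 and 5486 CPM in NT and 9528 and 9321 CPM in the starved libraries, which do not overlap. None of the 17 is in the rescue-high class. All these values keep NT as the control. With NT2 as the control the fitted log2 values fell below 0 for Vars (-0.33), Mthfd2 (-0.15), Phgdh (-0.0081) and Shmt2 (-0.0081). The other members named here kept their sign.

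Atf4 itself did not follow these genes. It measured 466 and 392 CPM in NT and 272 and 572 CPM in the starved libraries, so the NT values lay between the starved ones (0.021 ± 0.49, adjusted p = 1). Its log2 fold change was -0.71 without starved library 2 and 0.36 without starved library 1. The other stress response members measured were Gcn1l1, the activator of GCN2 (0.22 ± 0.47), Eif2s2, the beta subunit of eIF2 (-0.0052 ± 0.75), and Vegfa, an angiogenic factor gene and ATF4 target in the rescue-high class (0.22 ± 0.71). Their libraries overlapped, and the median of the 4 was 0.12, or between -0.12 and 0.18 with 1 library left out. Of the 30 stress response genes listed, these 4 were measured, and Ddit3, Trib3 and Chac1 are not analysed here.

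**Figure D2:**
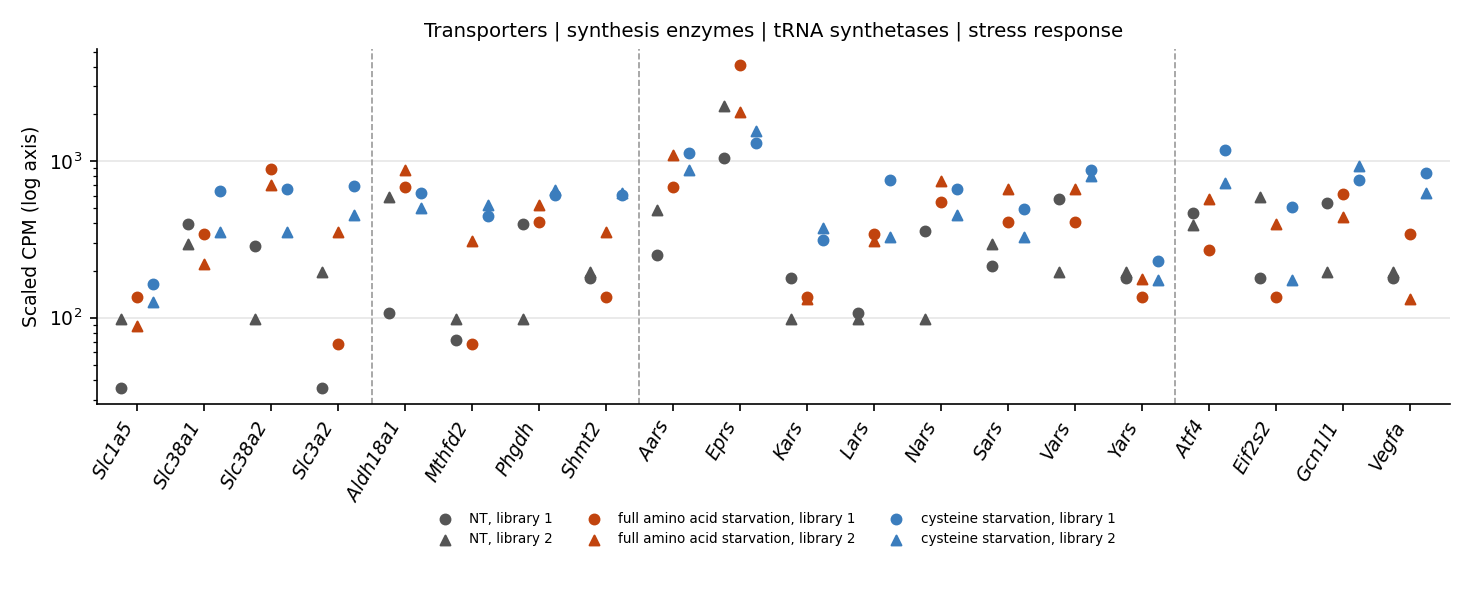
Scaled CPM (vertical log axis) of 16 of the 17 transporter, enzyme and synthetase genes and of 4 stress response genes in each library of NT, full amino acid starvation and cysteine starvation, 1 point per library. Slc38a2, Aldh18a1, Phgdh and 4 synthetase genes, Aars, Lars, Nars and Sars, have both full amino acid starvation points above both NT points, while those of Atf4 overlap.

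Genes of protein synthesis were divided. Of 50 ribosomal protein genes, 36 were above 0 and the median was 0.23, and in 9 the starved libraries lay above NT against 1 below. The summed level was 29368 and 16752 CPM in NT and 22254 and 33589 CPM in the starved libraries, so the groups overlapped. That median was 0.86 without NT 1, -0.12 without starved library 2 and -0.14 with library totals. Rpl27 of the large subunit measured 251 and 196 CPM in NT and 340.3 and 879 CPM in the starved libraries, with no overlap (1.48 ± 0.48, adjusted p = 0.388). Rpl18 (1.38 ± 0.60), Rpl8 (0.80 ± 0.39) and Rps7 (0.78 ± 0.44) also lay higher in both starved libraries. Reads of ribosomal protein genes are shared with many pseudogenes, and how such reads were counted is not given in the sources used here. The same holds for Npm1, Actb and Gapdh below.

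Initiation and elongation factors had 8 of 20 members above 0 and a median of -0.045. That median was 0.43 without NT 1, -0.29 without NT 2 and -0.42 with library totals. Eif4b, a cofactor of the eIF4A helicase and a target of mTORC1 signalling, measured 824 and 686 CPM in NT and 1225 and 1407 CPM in the starved libraries. Its starved libraries lay above NT (0.77 ± 0.31, adjusted p = 0.471). The helicase gene Eif4a1 measured 1719 and 1469.5 CPM in NT and 1021 and 1055 CPM in the starved libraries, and here both starved libraries lay below NT (-0.64 ± 0.30, adjusted p = 0.607). The eIF3 subunit genes Eif3d (-1.65 ± 0.62) and Eif3l, at a ratio of counts of 0.382 (95% interval 0.0653 to 1.59), were lower in both starved libraries, on few counts. Eif3l had 7 and 1 counts in NT and 1 and 2 in the starved libraries, so its order against NT 2 rests on the scaling. The scaffold gene Eif4g1 measured 2041 and 489.8 CPM in NT and 544 and 1231 CPM in the starved libraries, and its low-lying NT 2 left the groups overlapping (-0.65 ± 0.47). Of 6 mTORC1 pathway genes 3 were above 0, the kinase gene Mtor among them with overlapping libraries (1.15 ± 0.78). The median of those 6 was -0.26, and 0.61 without NT 1.

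Genes of the nucleolus, where ribosomes are assembled, lay mostly lower after starvation with all libraries. Of 12 measured, 8 were below 0, 5 had both starved libraries below both NT libraries and 2 above, and the median was -0.64. Ncl, encoding nucleolin, which binds nascent ribosomal RNA, measured 2113 and 1665 CPM in NT and 749 and 967 CPM in the starved libraries. Both starved values lay below both NT values (-1.15 ± 0.35, adjusted p = 0.36). Npm1, encoding the abundant nucleolar chaperone nucleophosmin, measured 859.5 and 489.8 CPM in NT and 408 and 219.8 CPM in the starved libraries, again without overlap (-1.32 ± 0.48, adjusted p = 0.442). Utp20, a factor of small subunit processing, measured 358 and 588 CPM in NT and 136 and 176 CPM in the starved libraries (-1.40 ± 0.58, adjusted p = 0.518). Mybbp1a, a nucleolar regulator of ribosomal RNA synthesis, measured 1146 and 588 CPM in NT and 476 and 572 CPM in the starved libraries, and starved library 2 nearly reached NT 2 (-0.86 ± 0.46). Nop56, a core protein of the box C/D particles that methylate ribosomal RNA, had 10 and 1 counts in NT and 1 and 3 in the starved libraries, and its libraries overlapped. Without NT 1 the list median was -0.011, and without each of the other libraries it lay between -0.82 and -0.57. The log2 fold changes without NT 1 were -0.93 for Ncl, -0.73 for Npm1, -1.87 for Utp20, -0.14 for Mybbp1a and 0.12 for Nop56.

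Chaperone genes were also mostly lower with all libraries, but without NT 1 the medians of both chaperone lists lay above 0. Of 13 cytosolic and mitochondrial heat shock and chaperonin genes, 1 was above 0 and the median was -0.48. Without NT 1 that median was 0.36. Hspa8, the constitutive cytosolic HSP70 gene, measured 3223 and 1078 CPM in NT and 1021 and 1671 CPM in the starved libraries, where NT 1 stood apart and the other 3 libraries overlapped (-0.76 ± 0.46). Hspa4 had the same order (-0.78 ± 0.48), and Hsph1, an HSP110 nucleotide exchange factor gene, was lower in both starved libraries (-0.68 ± 0.45). Hspa9, the mitochondrial HSP70 gene, was the member above 0, at 0.88 ± 0.48. Without NT 1 the log2 fold change was -0.88 for Hsph1, 0.23 for Hspa4 and 0.36 for Hspa8. Of 16 endoplasmic reticulum chaperone and translocation genes, 13 were below 0 with a median of -0.24, which was 0.40 without NT 1 and -1.16 without starved library 2. Rrbp1, encoding a ribosome-binding membrane protein of the rough endoplasmic reticulum, had the smallest p of all 1385 transcripts. It measured 1719 and 979.7 CPM in NT and 408 and 528 CPM in the starved libraries, with every starved value under every NT value (-1.61 ± 0.36, adjusted p = 0.319). Without NT 1 its log2 fold change was -1.03, and without NT 2 -1.84. The chaperone genes Hyou1 (-0.84 ± 0.50), Hspa5, encoding BiP (-0.64 ± 0.41), and Ckap4, a sheet-shaping membrane protein gene (-0.89 ± 0.63), were less far from 0, and of these 3 only Hyou1 showed no overlap. Their log2 fold changes without NT 1 were -1.36 for Hyou1, 0.29 for Hspa5 and -0.30 for Ckap4.

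**Figure D3:**
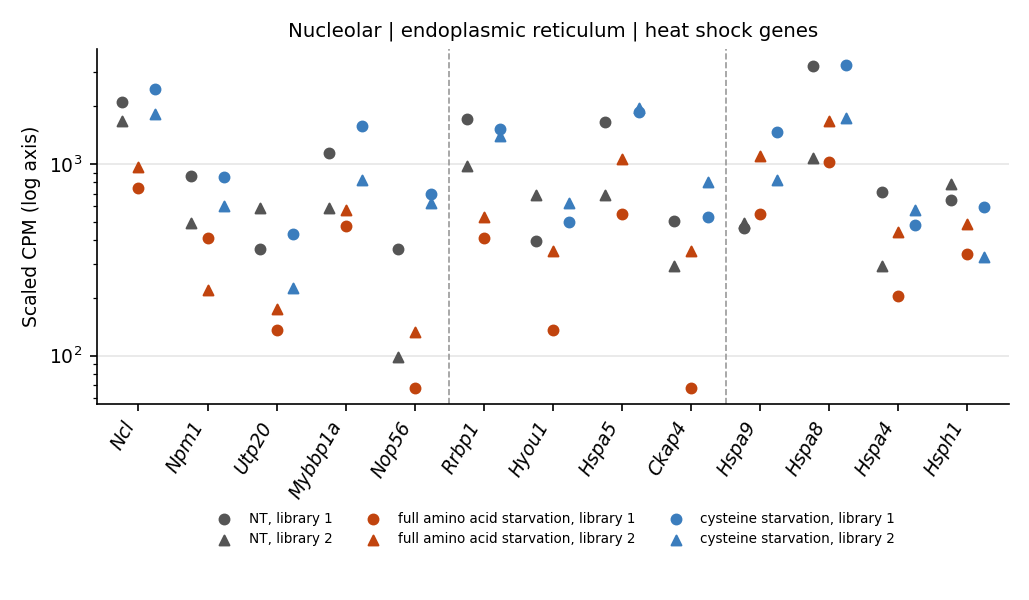
Scaled CPM (vertical log axis) of nucleolar, endoplasmic reticulum and heat shock genes in each library of NT, full amino acid starvation and cysteine starvation, 1 point per library. For Ncl, Npm1, Utp20 and Rrbp1 both full amino acid starvation points lie below both NT points, and for Hspa8 only NT 1 stands above them.

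Among cell cycle genes, those of G2 and mitosis had the lowest median in the plot of list medians: 12 of 16 lay below 0, 6 had starved libraries below NT and 0 above, and the median was -0.96. Leaving out each library in turn kept it between -1.19 and -0.70, and library totals gave -1.31. Cenpe, a kinetochore motor gene, measured 322 and 294 CPM in NT and 136 and 87.9 CPM in the starved libraries, without overlap (-1.54 ± 0.63, adjusted p = 0.607). Mki67, the proliferation marker that coats mitotic chromosomes, measured 358 and 882 CPM in NT and 136 and 308 CPM in the starved libraries. Its highest starved value lay just under NT 1 (-1.08 ± 0.59, adjusted p = 0.655). The kinesin gene Kif20b had 7 and 1 counts in NT and 1 and 1 in the starved libraries, a ratio of 0.255 (95% interval 0.0263 to 1.28), and the condensin gene Smc2 a ratio of 0.255 (95% interval 0.0263 to 1.28). For Kif20b the equal single counts of NT 2 and the starved libraries differ only by the scaling. The summed level of the 16 was 4441 and 3919 CPM in NT and 2518 and 2858 CPM in starvation, with no overlap. Those sums rest on 124 and 40 counts in NT and 37 and 65 in starvation, so the order of NT 2 and starved library 2 rests on the scaling. In bulk RNA, fewer cells in these phases and less of these RNAs in each cell cannot be told apart. Of 10 genes of the G1/S transition and DNA replication 7 were above 0, with a median of 0.30 (-0.062 with library totals), and 57.5% of all transcripts were above 0. The difference between these lists was not tested. Cdk4, the cyclin D kinase gene, measured 143 and 98.0 CPM in NT and 408 and 484 CPM in the starved libraries, and Mcm3, a subunit of the replicative helicase, had 2 and 1 counts in NT and 7 and 6 in the starved libraries. Both showed no overlap, with a log2 fold change of 1.78 ± 0.55, adjusted p = 0.388 for Cdk4 and a ratio of counts of 4.41 (95% interval 1.21 to 24.1) for Mcm3. With NT2 as the control the fitted log2 values of both were below 0, at -0.040 for Cdk4 and -0.22 for Mcm3. Cdk6, the related cyclin D kinase gene, stood at 0.75 ± 0.50, and Mcm7, another helicase subunit, at -0.96 ± 0.67 with overlapping libraries.

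Matrix genes gave no common direction, but a few stood out. Of 13 collagens and collagen-modifying enzymes 7 were above 0 (median 0.18, and -0.18 with library totals), and of 11 basement membrane genes 8 (median 0.32, and -0.049 with library totals). Col4a2, a chain of the network collagen of basement membranes, measured 859.5 and 489.8 CPM in NT and 2450.0 and 1451 CPM in the starved libraries. Its starved libraries lay above NT (1.34 ± 0.37, adjusted p = 0.346). Col4a1, which is transcribed from the same locus in the opposite direction and pairs with it in the trimer, measured 1576 and 784 CPM in NT and 817 and 1055 CPM in the starved libraries and overlapped (-0.45 ± 0.35). P4ha1, a prolyl hydroxylase gene in the rescue-high class, measured 752 and 979.7 CPM in NT and 2586 and 1143 CPM in the starved libraries (1.09 ± 0.42, adjusted p = 0.457). Col6a1 (0.82 ± 0.40) and Col16a1 (1.11 ± 0.65) lay higher without overlap, and Pcolce, a procollagen processing enhancer gene, lower (-1.53 ± 0.69). Postn, encoding the matricellular protein periostin and in the rescue-high class, had 2 and 2 counts in NT and 7 and 9 in the starved libraries (2.00 ± 0.67, adjusted p = 0.388). Thbs2, a thrombospondin gene, stood at -1.04 ± 0.47, and the fibrillin gene Fbn1 at -1.15 ± 0.61, both overlapping, while Thbs1 lay higher in both starved libraries (0.59 ± 0.38). Fn1, encoding fibronectin, measured 9348 and 5486 CPM in NT and 8167 and 10068 CPM in the starved libraries, with overlap (0.28 ± 0.36).

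Among 20 genes of contraction or YAP signalling, 7 lay above 0, with a median of -0.18 that was 0.39 without NT 1. Actb, the cytoplasmic beta-actin gene, measured 4262 and 3723 CPM in NT and 1497 and 2858 CPM in the starved libraries. Every starved value lay under NT (-0.85 ± 0.36, adjusted p = 0.518), and without NT 1 the log2 fold change was -0.73. The tropomyosin gene Tpm1 (-0.74 ± 0.36) overlapped and the talin gene Tln1 (-0.52 ± 0.32) did not. Ccn1, a matricellular YAP target, went the other way, measuring 394 and 98.0 CPM in NT and 544 and 747 CPM in the starved libraries (1.10 ± 0.52, adjusted p = 0.607).

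Genes of the lysosome and autophagy, 7 of 51 listed, had a median of 0.025, which was -0.50 without starved library 2, 0.33 without starved library 1 and -0.34 with library totals. Sqstm1, the autophagy receptor gene, measured 358 and 392 CPM in NT and 476 and 659 CPM in the starved libraries, higher in both starved libraries (0.67 ± 0.56), and Fnip2, a folliculin partner, lay lower in both (-0.62 ± 0.55). Both are in the rescue-high class. Of 5 iron and ferroptosis genes 3 were below 0. Fth1, the ferritin heavy chain gene that stores iron, measured 609 and 294 CPM in NT and 204 and 264 CPM in the starved libraries, without overlap (-1.09 ± 0.55, adjusted p = 0.632), and the iron chaperone gene Pcbp1 stood at -0.88 ± 0.59. Redox genes were represented by Prdx1, a peroxiredoxin (-1.29 ± 0.68), Sod1, a superoxide dismutase whose libraries overlapped, and Abcc1, a glutathione conjugate exporter (1.12 ± 0.54).

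Proteasome subunit genes had 10 of 13 below 0 and a median of -0.18, which lay between -0.46 and -0.015 with 1 library left out. Psmd3, of the regulatory particle lid, measured 501 and 196 CPM in NT and 68.1 and 132 CPM in the starved libraries (-1.95 ± 0.65, adjusted p = 0.388), while the lid gene Psmd7 lay higher, on 2 counts in NT, at a ratio of 3.06 (95% interval 0.546 to 31.0). Of 7 mitochondrially encoded genes 5 were below 0, and the median was -0.16 with all libraries, 0.067 without NT 1 and -0.42 without starved library 2, with mt-Atp6 at -0.55 ± 0.38 and mt-Nd1 at -0.77 ± 0.55, both without overlap. Of 8 nuclear respiratory chain and ATP synthase genes 5 were above 0, with a median of 0.57 that was -0.21 without starved library 2. Glycolytic genes (5, median 0.13) and sterol and fatty acid synthesis genes (6, median -0.17) had members on both sides, such as the enolase gene Eno1 (0.85 ± 0.53), Gapdh (-0.77 ± 0.55), the fatty acid synthase gene Fasn (-0.45 ± 0.41) and the desaturase gene Scd2 (-0.60 ± 0.50). With 1 library left out, the glycolytic median lay between -0.13 and 0.54 and the sterol and fatty acid median between -0.35 and -0.024. None of the FoxO and p53 targets listed was measured.

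**Figure D4:**
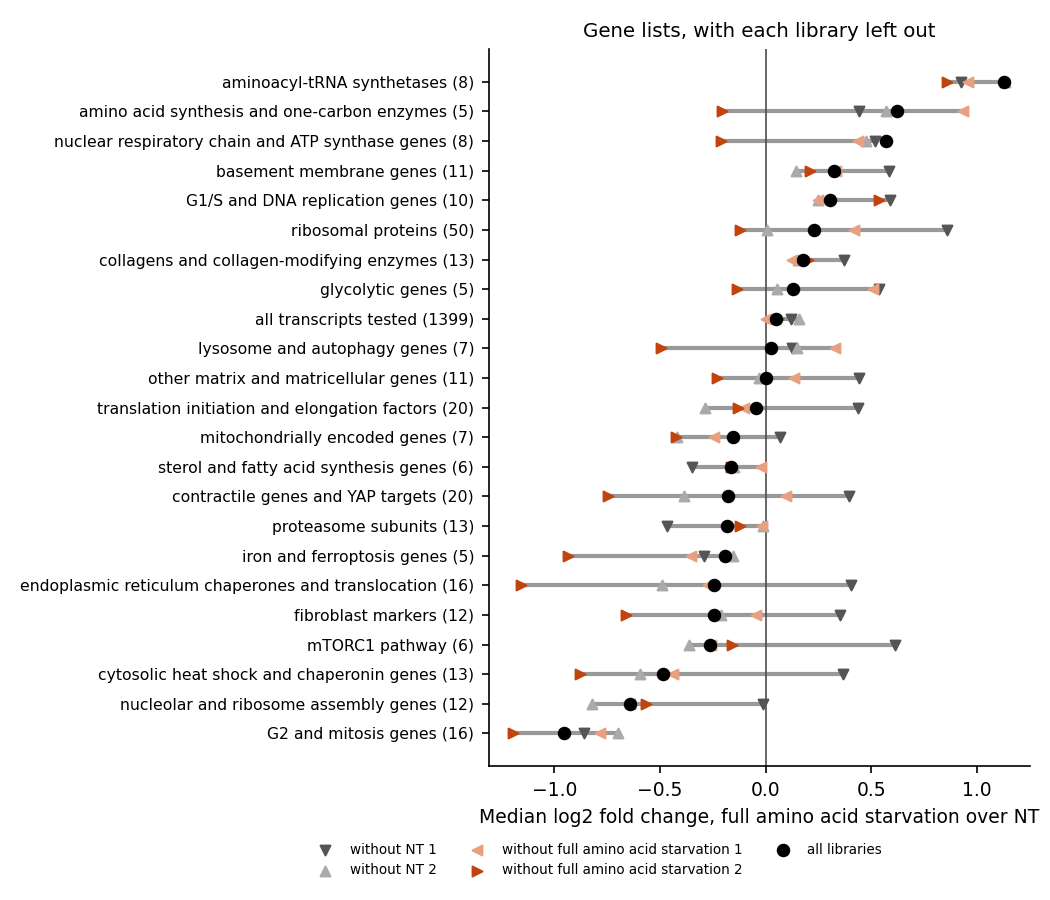
Median log2 fold change of full amino acid starvation over NT (horizontal axis) for each gene list with at least 5 measured members, whose number stands in brackets, with all libraries (black) and with each library left out (triangles, joined by a bar). The synthetase medians lie between 0.86 and 1.13 and the G2 and mitosis medians between -1.19 and -0.70, while those of the chaperone and contractile lists cross 0 without NT 1.

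The 12 transcripts with the smallest p above 0 and the 12 below 0 were described next, a choice made on these values. On the higher side, Myrfl, a relative of the myelin regulatory factor gene, measured 394 and 294 CPM in NT and 1361 and 1055 CPM in the starved libraries (1.71 ± 0.40, adjusted p = 0.319). Atp13a3, a polyamine transporter of the P5-type ATPase family, measured 1074 and 2547 CPM in NT and 4083 and 4353 CPM in the starved libraries (1.42 ± 0.34, adjusted p = 0.319). The bromodomain gene Brwd1 measured 215 and 294 CPM in NT and 1157 and 791 CPM in the starved libraries (1.99 ± 0.49, adjusted p = 0.327). All 3 had starved libraries above NT. Abca12, a lipid transporter (1.56 ± 0.41), Bcor, a corepressor of BCL6 (1.25 ± 0.33), Mocs1, of molybdenum cofactor synthesis (1.85 ± 0.51), Rbm33 (1.91 ± 0.54), the Golgi protein gene Gcc1 (1.37 ± 0.39) and Gm20594 (2.32 ± 0.67) followed, with Aars, Slc38a2 and Col4a2 completing the 12. Of these 12, 5 are in the rescue-high class (Myrfl, Abca12, Bcor, Mocs1 and Rbm33), and of the 12 on the lower side 0. The class as a whole, 271 transcripts, had a median of 0.60, against 0.011 for the other 1128 transcripts, but the class median was -0.0024 without NT 1 and 1.18 without NT 2.

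On the lower side stood Rrbp1, Ncl, Npm1 and Psmd3, given above. Ppm1g, a nuclear protein phosphatase gene linked to splicing, measured 895 and 392 CPM in NT and 136 and 308 CPM in the starved libraries (-1.64 ± 0.48, adjusted p = 0.36). Tmpo, encoding the lamina-associated polypeptide LAP2, measured 429.8 and 392 CPM in NT and 68.1 and 132 CPM in the starved libraries (-1.96 ± 0.65, adjusted p = 0.388). Ddx23, a spliceosomal helicase gene (-1.56 ± 0.54), Ints1, of the Integrator complex (-1.75 ± 0.68), Clip1, a microtubule plus-end protein gene (-1.27 ± 0.48), Mroh6 (-1.98 ± 0.62) and 8030462N17Rik (-2.03 ± 0.67) were also among them, with Zc3h18, a nuclear RNA decay factor gene, at a ratio of counts of 0.235 (95% interval 0.043 to 0.855). The groups did not overlap for any of these but Ints1, whose first starved library lay above NT 2.

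The 5 transcripts with the highest mean counts are all in the rescue-high class, and none separated the groups. Luc7l2, a splicing factor gene, had 5596 and 5944 counts in NT and 4814 and 8227 in the starved libraries, and Pglyrp3, a peptidoglycan recognition protein gene, 3794 and 5061 counts in NT and 3293 and 6253 in the starved libraries. NT 2 exceeded both starved libraries once scaled for these transcripts, and NT 1 lay below them (-0.18 ± 0.58 and -0.34 ± 0.60). Pigl (0.39 ± 0.56), 1110008L16Rik (0.45 ± 0.44) and Tbc1d30 (0.30 ± 0.53) overlapped too.

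**Figure D5:**
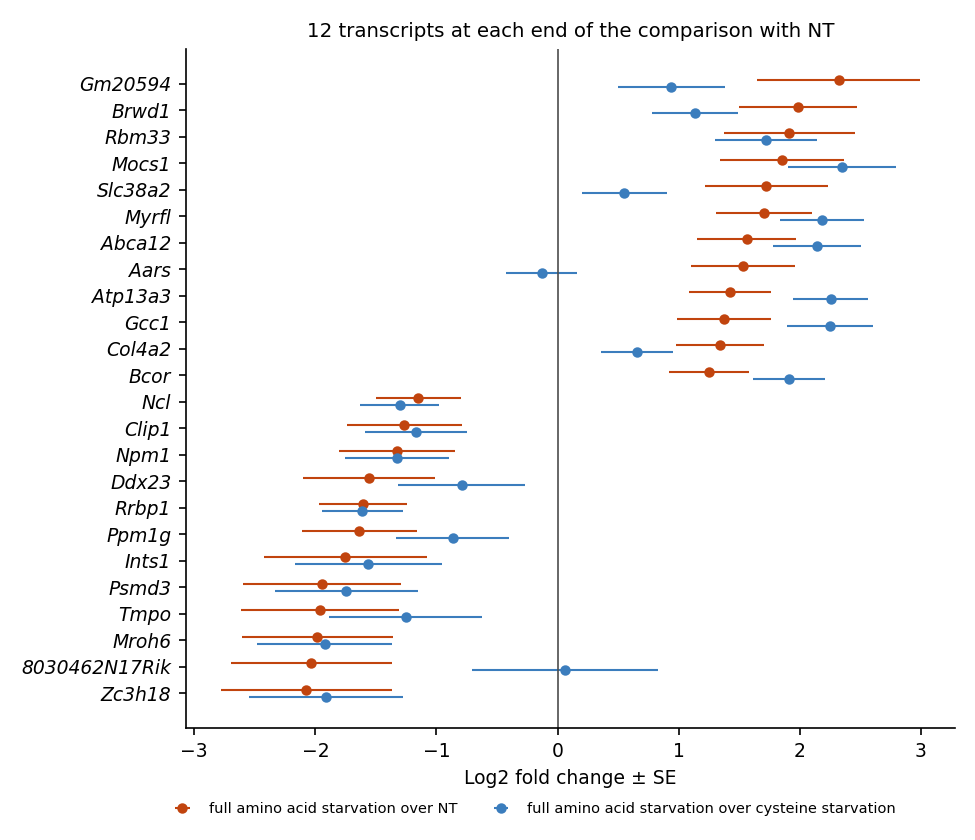
Log2 fold change ± SE (horizontal axis) of full amino acid starvation over NT and over cysteine starvation for the 12 transcripts with the smallest p on each side of the comparison with NT. Those chosen on the NT comparison lie beyond 1 SE of 0 there by that choice, and against cysteine starvation Aars and 8030462N17Rik lie within 1 SE of 0.

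Whether the loss of all amino acids differs from the loss of cysteine alone was tested directly. Comparing each starvation with NT, the control chosen here, would use the same NT libraries. By edgeR's quasi-likelihood test on all 14 libraries, 174 transcripts were higher (12.4%) and 36 lower (2.57%) in full amino acid starvation. The libraries of NT and the starvations varied more than the others (common coefficient of variation 0.328 against 0.0942 in the other 8), and a fit on these 6 libraries alone gave 86 higher (6.15%) and 1 lower (0.0715%). On 1 simulated data set with this difference in spread, the fit on 14 libraries made more false calls than its threshold allows. The fit on 6 libraries did not, but in the set simulated for the comparison with NT it did. The simulation drew each transcript independently, without the shifts in the share of the rescue-high class, so it cannot show that the calls with 6 libraries hold. Of the 174, 136 are in the rescue-high class and of the 36, 1. Without the class 43 were higher and 6 lower. Scaling by library totals turned the split to 74 higher and 474 lower. Leaving out cysteine starvation library 1 left 17 higher and 1 lower, and leaving out starved library 1 left 60 and 4.

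The 1 transcript lower in the fit of 6 libraries was Nop56, at 68.1 and 132 CPM in full amino acid starvation and 693 and 626 CPM in cysteine starvation, on 4 counts in the former (-2.63 ± 0.59, adjusted p = 0.00895 with 14 libraries and 0.0231 with 6). Of the 12 nucleolar genes, 4 were lower with 14 libraries: Nop56, Ncl (-1.30 ± 0.33, adjusted p = 0.0146), Npm1 (-1.33 ± 0.43, adjusted p = 0.0487) and Mybbp1a (-1.22 ± 0.40, adjusted p = 0.0494). Ncl measured 749 and 967 CPM against 2459 and 1827 CPM in cysteine starvation, without overlap. With 6 libraries Ncl, Npm1 and Mybbp1a did not pass (adjusted p = 0.186, 0.192 and 0.211).

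Rrbp1 was lower as well, at 408 and 528 CPM against 1518 and 1402 CPM (-1.61 ± 0.33, adjusted p = 0.00534, and 0.102 with 6 libraries). Lower with 14 libraries too were Hspa5 (-1.19 ± 0.37, adjusted p = 0.0398), Fth1 (-1.84 ± 0.45, adjusted p = 0.0137) and Vegfa (-1.80 ± 0.45, adjusted p = 0.0148), none of which passed with 6 libraries (adjusted p = 0.208, 0.0623 and 0.0604). Fth1 measured 204 and 264 CPM in full amino acid starvation and 974 and 726 CPM in cysteine starvation. Among the 17 amino acid genes only Eprs passed with 14 libraries, at 4083 and 2066 CPM against 1304 and 1552 CPM (1.07 ± 0.32, adjusted p = 0.0371, and 0.379 with 6). Slc38a2 (0.55 ± 0.35), Aldh18a1 (0.48 ± 0.37) and Aars (-0.13 ± 0.29) did not pass in either fit. Atf4 measured 272 and 572 CPM against 1172 and 726 CPM, and the difference did not pass (-1.11 ± 0.37, adjusted p = 0.0509, and 0.229 with 6 libraries).

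Among the transcripts higher than in cysteine starvation in both fits were Atp13a3 (2.26 ± 0.31, adjusted p = 0.00065 and 0.0411), Gcc1 (2.25 ± 0.36, adjusted p = 0.00132 and 0.0231) and Postn (2.41 ± 0.56, adjusted p = 0.0109 and 0.0231). Atp13a3 measured 4083 and 4353 CPM against 792 and 1001 CPM, and Gcc1 885 and 1011 CPM against 182 and 225 CPM, in each case without overlap. Postn is in the rescue-high class, and Atp13a3 and Gcc1 are not. Also in the class and higher in both fits were Myrfl (2.18 ± 0.35, adjusted p = 0.00137 and 0.027), Abca12 (2.15 ± 0.36, adjusted p = 0.00188 and 0.0395) and Mocs1 (2.35 ± 0.45, adjusted p = 0.00349 and 0.0231). Some markers of other cell types also passed in both fits: the pancreatic protease gene Ctrb1 (3.97 ± 0.64, adjusted p = 0.00139 and 0.00092), the muscle gene Ttn (2.05 ± 0.42, adjusted p = 0.00511 and 0.0395) and the epithelial cadherin gene Cdh1 (2.81 ± 0.84, adjusted p = 0.0366 and 0.0231). Ctrb1 measured 613 and 1495 CPM against 33.0 and 125 CPM, Ttn 1633 and 835 CPM against 231 and 350.5 CPM and Cdh1 613 and 176 CPM against 66.0 and 25.0 CPM, without overlap. The epithelial marker Cdh3 lay the other way (-1.69 ± 0.59, adjusted p = 0.067 and 0.128), as did the immune marker Cd4 (-0.68 ± 0.63, adjusted p = 0.532 and 0.541). The endothelial marker Flt1 lay higher (2.53 ± 0.94) and passed only with 6 libraries (adjusted p = 0.0846 and 0.0421).

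Marker lists of fibroblasts and other cell types were looked up, but markers that are not listed cannot check the fibroblast label. Every listed transcript has at least 1 count in each library, so a marker that is not listed may still be expressed in some. Of 22 fibroblast markers 12 were measured, collagen genes, Fn1 and Vim among them, with a median log2 fold change of -0.24 that was 0.35 without NT 1 and a summed level of 24282 and 16557 CPM in NT and 17286 and 25016 CPM in starvation. Of 17 epithelial markers 2 were measured, Cdh1 (0.92 ± 0.81) and Cdh3 (-1.42 ± 0.71), together at 429.8 and 588 CPM in NT and 817 and 219.8 CPM in starvation. Muscle, pancreatic exocrine, immune and endothelial markers were represented by 1 gene each, and neural and germ cell markers by 0. Ttn measured 716 and 686 CPM in NT and 1633 and 835 CPM in the starved libraries, and Ctrb1 215 and 979.7 CPM in NT and 613 and 1495 CPM in the starved libraries. Cdh1, Ttn and Ctrb1, all higher than in cysteine starvation, are in the rescue-high class, and their part in the results was not tested.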

How the data were processed

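Polyadenylated RNA of mouse embryonic fibroblasts was sequenced in 14 libraries of 7 groups. Per the submitters' processing notes, bcl2fastq 2.20.0.422, cutadapt 2.8, Bowtie 1.2.3, STAR 2.7.10a and the assembly GRCm39 were used. The counting tool, the annotation, the strand setting and the treatment of reads that match several places are not given in these sources. The authors deposited whole-number counts per Ensembl transcript for each library, in tables named as CPM whose totals differ, so they were used as counts. Symbols came from GENCODE mouse release 21 (GRCm38) by transcript identifier. All 1385 symbols differ, and 14 transcripts have none but stayed in the fit.

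All 14 libraries were fitted with 7 group means by edgeR 4.0.16 (quasi-likelihood, TMM scaling, 7 residual degrees of freedom) in R 4.3.3. P-values were two-sided and adjusted over 1399 transcripts by Benjamini-Hochberg at 0.05, and each adjusted p is from this fit unless 6 libraries are named. SE values come from the quasi-likelihood F statistic. In the comparison with NT, fold changes of transcripts with 3 or fewer counts in a group were replaced by ratios of scaled counts with exact intervals at a level of 95%, except where the change of sign of a fitted log2 value under another setting is given. Alternatives used limma 3.58.1, DESeq2 1.42.0, other scalings, count minimums, other controls and left-out libraries. The fit was tested on 1 simulated data set per comparison, in which a larger share of calls was false than the threshold allows with 14 libraries, and with 6 libraries against NT but not against cysteine starvation. Depth is the count total over listed transcripts, not the sequencing depth.

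The members, gene lists and rules were chosen with earlier results of these data known. Named were the 12 smallest p on each side, every measured transporter, synthesis, synthetase and stress response gene, up to 4 members with the smallest p of each other list, and the 5 highest mean counts. 1 synthesis gene that this rule names is not reported here, but is counted in its list. Nop56 and Fn1 were chosen after their values were seen. No list was tested.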

Additional observations from a re-analysis of the deposited data

How the results depend on the processing

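Transcripts called against NT numbered 0 with all 14 libraries, and also with 6 or 4 libraries, DESeq2 or its size factors, library totals, either count minimum and without the 3 highest transcripts. Limma called 13, NT2 as the control 459 (290 higher, 169 lower), both untreated groups 249 (217 higher, 32 lower), and the fit without the rescue-high class, chosen after seeing the data, 1. Leaving out 1 library gave 0 to 20. Against cysteine starvation 210 were called, 87 with 6 libraries, 548 with library totals (74 higher, 474 lower), 117 with a mean count of at least 20, 49 without the rescue-high class and 18 to 193 with 1 library left out. The other settings kept this count within 1.5 times. Where 1 library was left out, the lone sample of its group was assumed to vary like the others. The common coefficient of variation was 0.173 over 14 libraries and 0.376 over the 4 compared, and 884 of 1399 transcripts had 3 or fewer counts in NT 2.

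Whether equal replicate numbers mark paired libraries is not stated in the labels. The correlation of replicate deviations was -0.21 between NT and full amino acid starvation, 0.29 between NT and cysteine starvation and -0.058 between the starvations. With 2 libraries a group these values cannot settle the pairing. With the replicate block 0 were called against NT and 223 (194 higher, 29 lower) against cysteine starvation. With the numbers crossed between NT and full amino acid starvation, a setting chosen after seeing the data, 12 were called, 11 higher and 1 lower.

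The log2 fold change against NT, or against cysteine starvation where so named, changed sign for the following transcripts, and the cause was not tested. None of these was called against NT with all 14 libraries. With NT2 as the control it was 1.12 for 8030462N17Rik, -0.45 for Atf4, -0.40 for Ccn1, -0.040 for Cdk4, -0.14 for Col6a1, -0.68 for Fn1, 1.09 for Fnip2, -0.49 for Gcn1l1, -0.84 for Gm20594, 5.18 for Luc7l2, -0.22 for Mcm3, -0.15 for Mthfd2, 6.21 for Pglyrp3, -0.0081 for Phgdh, -0.24 for Psmd7, -0.067 for Rpl8, -0.0081 for Shmt2, -0.33 for Vars. In the fit on 6 libraries it was -0.10 for Atf4. In the fit on the 4 libraries compared it was -0.082 for Atf4. With library totals it was -0.34 for Atf4, -0.14 for Fn1, -0.15 for Gcn1l1, -0.11 for Vars, -0.14 for Vegfa and, against cysteine starvation, -0.58 for Aldh18a1, -0.51 for Slc38a2. With limma it was -0.11 for Atf4, 0.016 for Kars, 0.011 for Luc7l2. With both untreated groups it was -0.21 for Atf4, -0.20 for Fn1, 0.23 for Fnip2, -0.14 for Gcn1l1, 2.50 for Luc7l2, 2.93 for Pglyrp3, -0.036 for Vars. Without the 3 highest transcripts it was -0.066 for Atf4. With a mean count of at least 20 it was 0.070 for Eif2s2 and, against cysteine starvation, 0.11 for Aars. With the replicate block it was 0.093 for Eif2s2, 0.037 for Luc7l2. Without the rescue-high class it was 0.080 for Eif2s2 and, against cysteine starvation, 0.10 for Aars. Under the crossed pairing it was 0.093 for Eif2s2, 0.057 for Luc7l2, 0.0093 for Pglyrp3. With a mean count of at least 10 it was against cysteine starvation 0.071 for Aars. With 1 library left out, the log2 fold change ran from -0.0024 to 1.09 for 1110008L16Rik, from -0.71 to 0.36 for Atf4, from -0.083 to 1.71 for Cdh1, from -0.72 to 0.29 for Col4a1, from -1.10 to 0.70 for Eif2s2, from -1.44 to 0.94 for Eif4g1, from -2.11 to 0.44 for Fbn1, from -0.031 to 0.74 for Fn1, from -0.077 to 1.37 for Gcn1l1, from -1.54 to 0.23 for Hspa4, from -1.26 to 0.29 for Hspa5, from -1.22 to 0.36 for Hspa8, from -0.42 to 0.44 for Kars, from -0.76 to 0.78 for Luc7l2, from -2.18 to 0.70 for Mcm7, from -0.21 to 1.95 for Mthfd2, from -2.06 to 0.12 for Nop56, from -0.99 to 0.88 for Pglyrp3, from -0.19 to 1.35 for Pigl, from -1.40 to 0.10 for Scd2, from -0.43 to 0.93 for Shmt2, from -0.22 to 2.696 for Slc3a2, from -0.31 to 1.36 for Tbc1d30, from -0.19 to 1.51 for Vars, from -0.47 to 0.89 for Vegfa. Against cysteine starvation it ran from -0.58 to 0.12 for Aars.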
